A study of Mus musculus with 20 samples.

Results

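The cytosolic ribosomal protein genes encode the proteins that, with the ribosomal RNAs, build the small and large subunits of the cytosolic ribosome. They were taken here by symbol, as protein-coding genes whose name begins with Rpl or Rps and a number, together with Rplp0, Rplp1, Rplp2 and Rpsa and without the Rps6k kinases and names that end in -ps. The rule found 86 of 35580 genes. Of these, 43 belong to the large subunit, 31 to the small subunit and 3 to the P stalk, 8 are paralogs of a core gene (Rpl3l, Rpl7l1, Rpl10l, Rpl22l1, Rpl36al, Rpl39l, Rps27l and Rps27rt), and 1, Rps19bp1, encodes a protein that binds Rps19 and is itself no ribosomal protein. The symbols of Fau and Rack1, which also encode ribosomal proteins, are not matched by the rule, and they were followed apart.

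RNA was sequenced from hippocampus and neocortex of WT and miR-324-null mice, with 5 samples in each of the 4 groups. All 20 samples came from 13.5-month-old males on a C57BL/6J background. The null allele is a CRISPR deletion at Mir324 on chromosome 11, made in founders of mixed C57BL/6 and CBA/ca background that were then crossed onto C57BL/6J, and it is carried by every cell rather than by a chosen cell type. Values for the Mir324 hairpin are not analysed here, and the libraries were therefore not checked for the deletion. The labels number the samples of each group and do not state which mouse each came from, so the p values measure the spread between samples.

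Translation depends on these genes in every cell. Each ribosome takes a single copy of most of the proteins, and the cell makes them in near-equal amounts. The mRNAs share a start: they begin with a C and a run of pyrimidines, the 5′ terminal oligopyrimidine tract, through which mTORC1 signalling and the La-related protein Larp1 set how fast they are translated. In neurons part of the ribosome pool lies in dendrites and axons, where proteins are made close to synapses. The mouse genome also carries very many reverse-transcribed copies of these mRNAs, most of them processed pseudogenes, and reads from a copy and its parent can be hard to tell apart.

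To show the tract, 4 members are printed around their annotated start, on the coding strand of GRCm38.p6 as held by RefSeq, with the run that begins at the start in capitals. Rpl15 carries the longest run of the matched members, Rps6 encodes the protein phosphorylated by the S6 kinases, Rps21 lies among the members with large tissue differences, and Rplp2 is a stalk protein.
Rpl15 (chr14:18270967-18270996, minus strand): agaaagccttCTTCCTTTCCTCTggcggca
Rps6 (chr4:86857348-86857377, minus strand): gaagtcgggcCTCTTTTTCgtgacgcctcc
Rps21 (chr2:180257369-180257398, plus strand): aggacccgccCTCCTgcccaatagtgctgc
Rplp2 (chr7:141447641-141447670, plus strand): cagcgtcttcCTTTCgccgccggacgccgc
A start sequence was held for 66 members. A C at the annotated start that opens a run of at least 5 bases, each C or T, was found on the coding strand in 14 of these (21.2%), against 813 of 27025 genes in all (3.01%). A match describes these letters at an annotated start, which can lie some bases away from the start used in brain.

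Levels per transcript length, in TPM (a transcript's reads over its length, scaled to the same total in every sample), ranged widely between members. Among the 43 large subunit genes the mean over the 20 samples ran from 74.0 to 1693 TPM with a median of 537 TPM, and among the 31 small subunit genes from 332 to 2137 TPM with a median of 553 TPM. The highest were Rps29, a zinc-binding small subunit protein, at 2137 ± 171 TPM (SD, n = 20), and Rpl41, one of the shortest proteins known, at 1693 ± 129 TPM. Rps24 followed at 1363 ± 55.6 TPM, Rpl13a at 1278 ± 85.7 TPM and the stalk protein Rplp1 at 1270 ± 207 TPM. Rplp1 had the largest SD among these 5.

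The other end of the range was held by paralogs. Rpl10l, a testis gene, had at most 1 estimated count in any sample, Rpl39l, also known from testis, at most 3, and Rpl3l, the form of striated muscle, at most 10. The retrogene Rps27rt held more than a trace of counts in 3 of 20 samples, with at most 14.9 in any sample. These 4 were too low for testing, which left 82 members, and Rps19bp1 was the fifth lowest at 31.3 ± 3.89 TPM (SD, n = 20). Rps27l, a paralog of Rps27 that p53 induces, averaged 41.99 TPM and Rpl7l1 37.9 TPM.

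In the other pairs both genes were used. Rpl22l1 made up 49.97% ± 1.75 (SD, n = 5) of the summed TPM of Rpl22 and Rpl22l1 in WT hippocampus, 49.4% ± 2.58 in miR-324-null hippocampus, 43.1% ± 3.12 in WT neocortex and 45.9% ± 2.63 in miR-324-null neocortex. Rpl36al held 41.0% to 44.0% of the Rpl36a pair as group means. Rps27l held 4.87% to 5.74% of the Rps27 pair and Rpl7l1 5.21% to 6.399% of the Rpl7 pair. Of the 4 tested paralogs, each counted alone, Rpl22l1 and Rpl36al thus came near the level of their partners and the other 2 stayed far below. With near-identical copies added, Rpl36a stood at 493 TPM and Rpl36al at 218 TPM. Rps4x, whose partner Rps4l is not among the genes the rule took, stood at 465 ± 27.8 TPM (SD, n = 20).

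**Figure D1:**
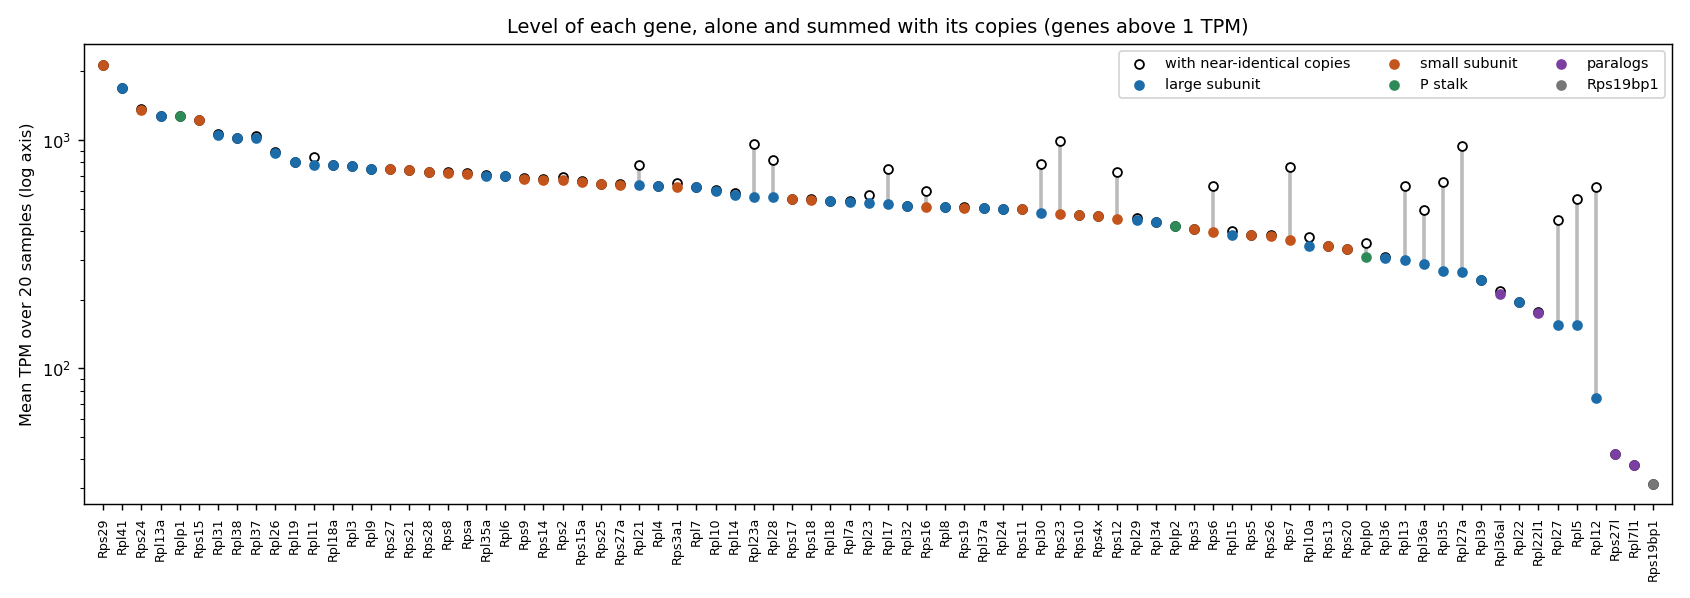
Mean TPM over 20 samples (log axis) of each member above 1 TPM, ordered by level. Filled points are the gene alone, coloured by class, and open points are the gene summed with its near-identical copies. Rps29 leads at 2137 TPM, and Rpl12 moves from 74.0 to 624 TPM once copies are added.

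Copies held a large part of the signal of some members. At least 95% identity over at least 100 aligned bases and at least 50% of the copy's length linked 80 members to 688 other genes, 676 of them processed pseudogenes, and Rpl21 had the most with 62. For 8 core members the copies took over 50% of the summed TPM. Rpl12, whose protein lies at the base of the stalk, went from 74.0 TPM alone to 624 TPM with copies, mostly through Gm10275 at 547 TPM. Rpl27a went from 265 to 943 TPM, with Gm7536 at 674 TPM, and Rpl5, which binds 5S rRNA, from 155 to 551 TPM, with Gm15500 at 396 TPM. The lowest core level rose from 74.0 to 195 TPM, which is that of Rpl22. The order of members by level thus depended on where the copies were counted.

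The transcript forms also differed in annotation. Of all estimated counts of the members, 79.5% lay on transcripts annotated as protein-coding, 8.47% on retained introns, 7.92% on processed transcripts and 4.09% on nonsense-mediated decay forms. In 15 of the 77 core genes, under 50% of the counts lay on protein-coding forms. For Rps26 a single retained-intron form held 95.5% of the counts and for Rpl23a another held 95.05%. Only 0.896% of the counts of Rpl37 lay on protein-coding forms. The retained-intron form is 596 bases long for Rps26 and 588 for Rpl23a, and their leading protein-coding forms 681 and 560 bases. Reads that forms of a gene share are divided by kallisto's model. Whether these mRNAs keep an intron was not tested.

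Each sample was sequenced to between 12752439 and 19617765 estimated counts. Marker lists matched the labelled tissues: the 10 hippocampal field markers summed to 205 to 331 TPM in hippocampus and 63.9 to 107 TPM in neocortex, and the 10 neocortical layer markers to 135 to 240.0 TPM and 560 to 839 TPM. The 8 choroid plexus markers stood apart in WT hippocampus replicate 3 (6985 TPM), miR-324-null hippocampus replicate 5 (6026 TPM) and miR-324-null neocortex replicate 2 (1294 TPM). The 8 striatal markers summed to 162 to 361 TPM in WT neocortex and 247 to 654 TPM in miR-324-null neocortex. Both miR-324-null libraries numbered 5 also differed from the other miR-324-null libraries at copies of Rplp0 and Rps3a1, as described with those genes. Their genotype and strain background were not checked here, and they are used as labelled. Values without them are given for Rplp0 and for the counts of calls. Most other values of the miR-324-null groups are given only with them.

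Together the members took up between 4.34 and 5.39% of the transcriptome. Their summed TPM, as a percentage of the TPM of all genes, was 5.04, 5.11, 5.10, 4.82 and 5.03% in the WT hippocampus samples. It was 5.25, 5.39, 4.75, 4.70 and 4.81% in miR-324-null hippocampus. In WT neocortex it was 4.76, 4.37, 4.34, 4.37 and 4.45%, and in miR-324-null neocortex 4.76, 4.64, 4.49, 4.44 and 4.74%. All WT hippocampus samples lay above all WT neocortex samples, while the miR-324-null tissues overlapped. The group means were 5.02% ± 0.12 and 4.98% ± 0.32 in hippocampus and 4.46% ± 0.17 and 4.61% ± 0.15 in neocortex, WT first (SD, n = 5).

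Samples that were high for one subunit were high for the other. The deviations of the summed large and small subunit values from their group means had a Pearson r of 0.99 and a Spearman rho of 0.98 over the 20 samples. With their copies the members had r = 0.64 and rho = 0.66, with the 13 mitochondrial genome genes r = 0.61 and rho = 0.58, and with total counts r = -0.23 and rho = -0.09. These are descriptions of libraries that share a total, since all values are parts of one sum.

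**Figure D2:**
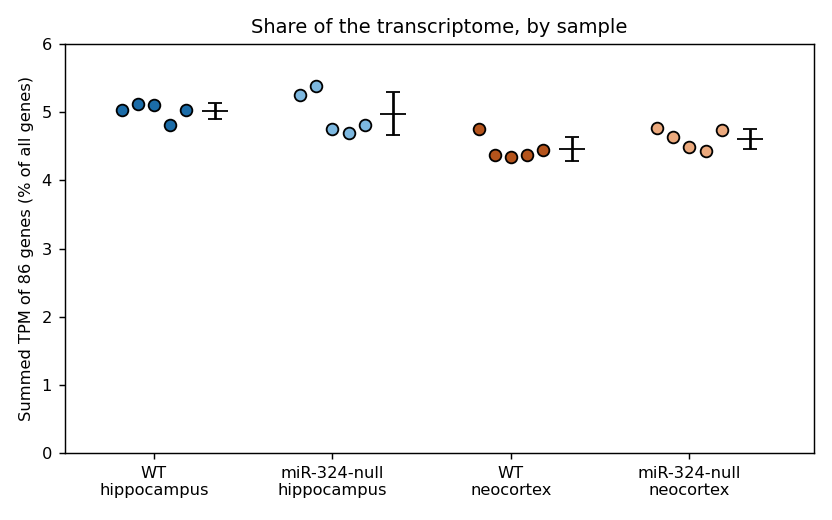
Summed TPM of the 86 genes in percent of all genes, for each of the 20 samples (points) with the group mean and SD (bar at the right of each group, n = 5). WT hippocampus lies between 4.82 and 5.11% and WT neocortex between 4.34 and 4.76%.

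The ribosomal protein genes as a set stood higher in hippocampus than in neocortex, most of them by a small amount. In WT mice 58 of the 82 tested members were higher in hippocampus and 0 were lower (edgeR's quasi-likelihood test, adjusted p at most 0.05 after Benjamini-Hochberg adjustment over all genes). Across the 14894 genes tested, 36.1% were called, 18.1% higher and 18% lower. The median log2 fold change of the members was 0.20, a 1.15-fold difference, against 0.00 over all genes, and 80 of 82 members were above 0. The groups did not overlap, with hippocampus above, for 35 members, and for 13.1% of all genes (26.5% in either direction). DESeq2 called 61 members, none of them lower, and no member fell at an unadjusted p of 0.05 either.

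In miR-324-null mice the same comparison called 27 members, all higher in hippocampus, where 27.4% of 15033 genes were called, 13.8% higher and 13.6% lower. DESeq2 called 33 members, again all higher. The median log2 fold change was 0.19, against 0.01 over all genes, and 81 of 82 members were above 0. The groups did not overlap for 14 members, and for 10.1% of all genes hippocampus lay wholly above (21.1% apart in either direction). The median standard error of a member was 0.08 here and 0.05 in WT. Of the members called, 25 were shared between the genotypes, which is 43.1% of the WT calls and 92.6% of the miR-324-null calls, and Rpl21 and Rps3 were called in miR-324-null alone. The interaction, which tests whether the genotypes differ in the tissue difference, called 0 members in edgeR and in DESeq2, and 0 at an unadjusted p of 0.05, with 0.0195% of 15391 genes called. The count in miR-324-null mice fell to 13 without the miR-324-null hippocampus replicate 5 and neocortex replicate 2 libraries that held choroid plexus markers, with a median of 0.20. It was also 13 without neocortex replicate 3 or without neocortex replicate 4, 14 without hippocampus replicate 1, 15 without hippocampus replicate 2 and 18 without neocortex replicate 2. It was 23 without hippocampus replicate 5 and 25 without neocortex replicate 5. In WT it was 55 without hippocampus replicate 3, the library with choroid plexus markers. The fits of both genotypes took the samples as unpaired. With a block for the sample number, edgeR called 39 members in miR-324-null mice.

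**Figure D3:**
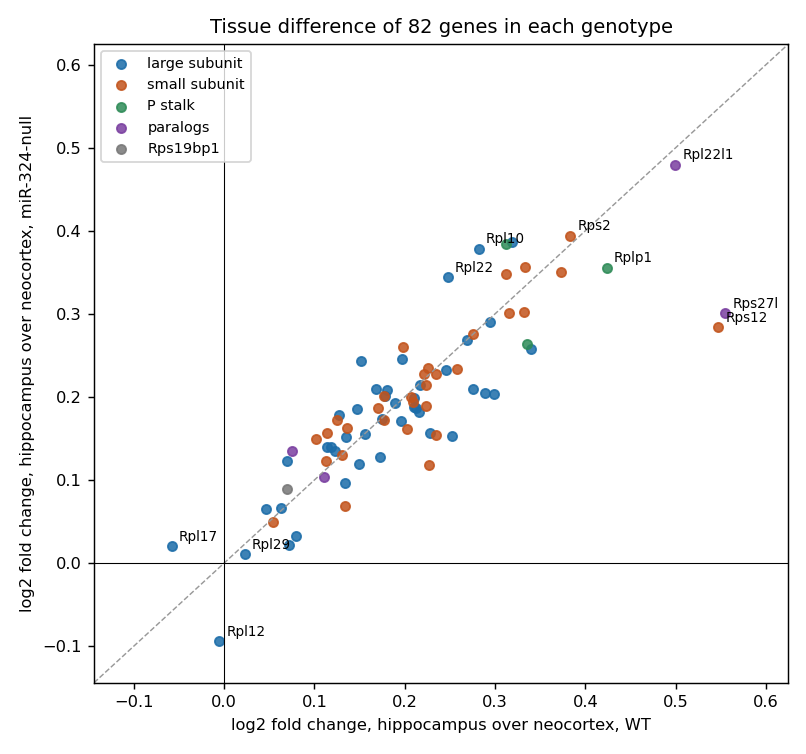
Log2 fold change of hippocampus over neocortex for each of 82 members in WT (horizontal) and miR-324-null (vertical), coloured by class, with the dashed line of equal change. Nearly all points lie above 0 on both axes (80 of 82), Rpl22l1 lies far out on both, and Rpl12 and Rpl17 lie near 0. The 2 axes share no samples.

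Over the 82 members the tissue differences of the genotypes had a Pearson r of 0.84 and a Spearman rho of 0.87. The 3 stalk genes had the highest median of the core classes in both genotypes, 0.34 in WT and 0.36 in miR-324-null, and all 3 were called in WT and 0 in miR-324-null. Of 31 small subunit genes 25 were called higher in WT (median 0.22) and 13 in miR-324-null (median 0.20). All 31 were above 0 in both genotypes. Of 43 large subunit genes 28 were called higher in WT (median 0.18) and 13 in miR-324-null (median 0.18). Above 0 were 41 of the 43 in WT and 42 in miR-324-null. Of the 4 tested paralogs, all above 0 in both genotypes, 2 were called in WT and 1 in miR-324-null. Over all genes 18.1% were called higher in WT and 13.8% in miR-324-null. Members whose start opened with a pyrimidine run had a median of 0.21 in WT (13 tested) and the other matched members 0.18 (49 tested), and in miR-324-null 0.21 and 0.19, so the groups by start sequence lay close together.

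Rpl22l1, the paralog of Rpl22 that cells use more when Rpl22 is lost, had groups that did not overlap in either genotype. It had the largest called fold in miR-324-null, and in WT it came after Rps27l and Rps12. Its CPM (counts as a share of the library, scaled between samples by TMM) were 49.8, 43.5, 43.5, 45.6 and 43.4 in WT hippocampus and 39.7, 31.0, 30.2, 26.9 and 31.9 in WT neocortex. In miR-324-null mice they were 51.8, 51.7, 41.7, 45.5 and 41.6 in hippocampus and 38.5, 33.9, 33.2, 31.0 and 31.2 in neocortex. Every hippocampus sample lay above every neocortex sample of its genotype, with WT neocortex replicate 1 the highest of its group. The log2 fold change was 0.50 ± 0.09 (SE) in WT (edgeR, adjusted p = 0.00051) and 0.48 ± 0.08 in miR-324-null (adjusted p = 0.00111). Its partner Rpl22 changed less, by 0.25 ± 0.04 in WT and 0.34 ± 0.08 in miR-324-null.

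Rps2, a small subunit protein at the mRNA entry side, had 322, 306, 321, 282 and 285 CPM in WT hippocampus and 238, 245, 217, 213 and 249.9 CPM in WT neocortex. In miR-324-null mice it had 347, 353, 279.8, 272 and 285 CPM in hippocampus and 277, 231, 225, 224 and 219 CPM in neocortex. The WT groups did not overlap, and in miR-324-null the highest neocortex sample, replicate 1, lay above the lowest hippocampus sample. The log2 fold change was 0.38 ± 0.06 (SE) in WT and 0.39 ± 0.09 in miR-324-null (edgeR, adjusted p = 0.00018 and 0.00727).

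Rpl10, a large subunit protein close to the peptidyl transferase centre, had 267, 254, 254, 236 and 244 CPM in WT hippocampus and 222, 214, 187, 197 and 213 CPM in WT neocortex. In miR-324-null it had 265, 279, 238, 228 and 275 CPM in hippocampus and 212, 197, 192, 176 and 218 CPM in neocortex. Neither pair of groups overlapped. Rpl10 differed by a log2 fold change of 0.28 ± 0.05 (SE) in WT and 0.38 ± 0.08 in miR-324-null (edgeR, adjusted p = 0.000998 and 0.00279).

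Rpl3, which also reaches towards that centre, had 602, 599, 605, 572 and 573 CPM in WT hippocampus against 509, 485, 454, 449.8 and 509 CPM in WT neocortex. In miR-324-null it had 596, 651, 551, 542 and 556 CPM against 503, 481, 474, 457 and 467 CPM. The groups did not overlap in either genotype, and both log2 fold changes were 0.29, with SE 0.05 and 0.06. Rpl3 falls under the rule for named genes as the partner of Rpl3l, and its sample values were printed after they were seen.

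The other members with the largest called folds were taken from each genotype. In WT, Rps27l rose by 0.55 ± 0.13 (SE), Rps12 by 0.55 ± 0.08, Rplp1 by 0.42 ± 0.06, Rps28 by 0.37 ± 0.05, Rpl13 by 0.34 ± 0.05 and Rplp0 by 0.34 ± 0.05 on the log2 scale. In miR-324-null, Rpl14 rose by 0.39 ± 0.10, Rps21 by 0.36 ± 0.10, Rps28 by 0.35 ± 0.08 and Rps13 by 0.35 ± 0.10. In miR-324-null the log2 fold changes of Rps27l and Rplp1 were 0.30 ± 0.12 and 0.36 ± 0.13, and neither was called (edgeR, adjusted p = 0.0841 and 0.0695).

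For Rps12 the tissue difference in WT was smaller once its copies were added. It had 126, 119, 132, 115 and 137 CPM in WT hippocampus and 86.9, 106, 76.2, 84.9 and 77.0 CPM in WT neocortex. With its copies added, the values were 163, 156, 162, 144 and 157 CPM against 134, 139, 120.0, 130.3 and 135 CPM. The groups stayed apart, and the log2 fold change went from 0.55 to 0.25 ± 0.05 (SE; edgeR, adjusted p = 0.00143). In miR-324-null the means of Rps12 were 116 ± 22.1 CPM (SD, n = 5) in hippocampus and 95.7 ± 9.72 CPM in neocortex alone, and 158 ± 15.0 CPM and 131 ± 8.88 CPM with copies. Alone, those groups overlapped, and the log2 fold change of 0.28 ± 0.12 (SE) was not called (edgeR, adjusted p = 0.0968). For Rpl13 the WT log2 fold change went from 0.34 to 0.22 with copies. Over all members summed with their copies, 55 were called in WT and 28 in miR-324-null, with medians of 0.18 in both.

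A few members, each counted alone, stayed at one level. Rpl17 had 195, 189, 175, 177 and 188 CPM in WT hippocampus and 194, 186, 189, 190.1 and 204 CPM in WT neocortex, with a log2 fold change of -0.06 ± 0.04 (SE). In miR-324-null it was 0.02 ± 0.07. Rpl12 had a log2 fold change of -0.01 ± 0.07 in WT and -0.09 ± 0.10 in miR-324-null, and Rpl29 of 0.02 ± 0.06 and 0.01 ± 0.09. The abundant Rps24 stood at 0.05 ± 0.05 and 0.05 ± 0.06. None of these 4 passed the test in either genotype. Rpl17, Rpl12 and Rpl29 are outside the rule for named genes and were picked by these values.

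The proteins and factors around the ribosome did not all follow. Genes said here to rise or fall were called higher or lower in hippocampus. These counts stand beside the 36.1% of all genes called in WT and 27.4% in miR-324-null. Fau, which encodes a small subunit protein joined to a ubiquitin-like one, rose in hippocampus by 0.16 ± 0.05 (SE) on the log2 scale in WT, and its log2 fold change in miR-324-null was 0.16 ± 0.11 and was not called. Rack1, a scaffold on the small subunit, had log2 fold changes of 0.12 ± 0.05 and 0.12 ± 0.06 and was called in neither genotype. Of 8 elongation factor genes 3 rose and 1 fell in WT, and 4 rose in miR-324-null. Eef1a1, the main factor that brings tRNA to the ribosome, rose by 0.47 ± 0.05 in WT and 0.42 ± 0.05 in miR-324-null, while Eef1a2, its form in mature neurons, fell by 0.19 in WT with an SE of 0.06. The lists overlap, as Eef1a1 and other elongation factors also carry the tract. Of 17 other mRNAs of the terminal oligopyrimidine class 9 rose and 1 fell in WT, and 11 rose and 1 fell in miR-324-null, with Nap1l1 the one that fell in both. Of 28 nucleolar and assembly factors 3 rose and 2 fell in WT, and 4 rose in miR-324-null. Among 18 genes of the mTORC1 pathway and of tract-binding control 4 rose and 2 fell in WT, and 1 rose and 3 fell in miR-324-null. Of these, Tsc1, which holds the pathway back, fell by 0.30 in WT and 0.37 in miR-324-null, and Eif4ebp1, which encodes a repressor of cap-dependent translation, fell by 0.69 and 0.65. Its relative Eif4ebp2, the more abundant of the pair, rose by 0.26 ± 0.06 (SE) in WT, and in miR-324-null its log2 fold change was 0.16 ± 0.06 and was not called. Tsc2, the partner of Tsc1, rose by 0.20 and 0.14.

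Cell type markers moved with tissue as well. Choroid plexus markers were called higher in hippocampus for 5 of 5 tested in WT, with a median log2 fold change of 3.698. In miR-324-null it was 1 of 7, with a median of 1.61. Both medians include the libraries that stood apart for these markers. In WT the markers summed to 6985 TPM in hippocampus replicate 3 and 40.1 to 146 TPM in the other hippocampus samples, against 18.4 to 74.8 TPM in neocortex. Striatal markers were lower in hippocampus for 3 of 8 in WT, with a median of -0.68, and for 8 of 8 in miR-324-null, with a median of -2.08. The 8 neuronal markers summed to 5101 to 5732 TPM in hippocampus and 5497 to 6651 TPM in neocortex, with 0 of 8 at 0. Of them 1 was called higher and 5 lower in hippocampus in WT, and 2 higher and 4 lower in miR-324-null. The 8 astrocyte markers summed to 1158 to 1458 TPM in WT hippocampus and 1076 to 1149 TPM in WT neocortex, and to 1142 to 1403 TPM and 975.5 to 1293 TPM in miR-324-null, with 5 higher and 1 lower in WT and 1 each way in miR-324-null. The 10 oligodendrocyte markers overlapped between tissues, at 3489 to 5989 TPM in hippocampus and 3939 to 6496 TPM in neocortex. The part of these markers' cells in the members' tissue difference was not tested. In bulk tissue a change in how many cells of a type are present cannot be told apart from a change in RNA per cell.

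Between the genotypes the members lay close together, and Rplp0 was the exception. In hippocampus edgeR and DESeq2 called 0 of the 82 members, and 1, Rplp0, had an unadjusted p of at most 0.05, while 0.115% of 14796 genes were called, 0.0676% higher and 0.0473% lower. The groups did not overlap for 0 members, against 2.55% of all genes (1.37% with miR-324-null above). The median log2 fold change of the members was -0.01, with a range of -0.13 to 0.36 and a median SE of 0.07. In neocortex 1 member was called, Rplp0, which was higher in miR-324-null mice, while 0.315% of 14930 genes were called, 0.161% higher and 0.154% lower. It was also the 1 member whose groups did not overlap, against 2.3% of all genes (1.01% with miR-324-null above). The median there was 0.01, with a range of -0.12 to 0.45 and a median SE of 0.06. Of the members 37 were above 0 in hippocampus and 46 in neocortex, and all members but Rplp0 lay within 0.18 of 0 in both tissues.

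**Figure D4:**
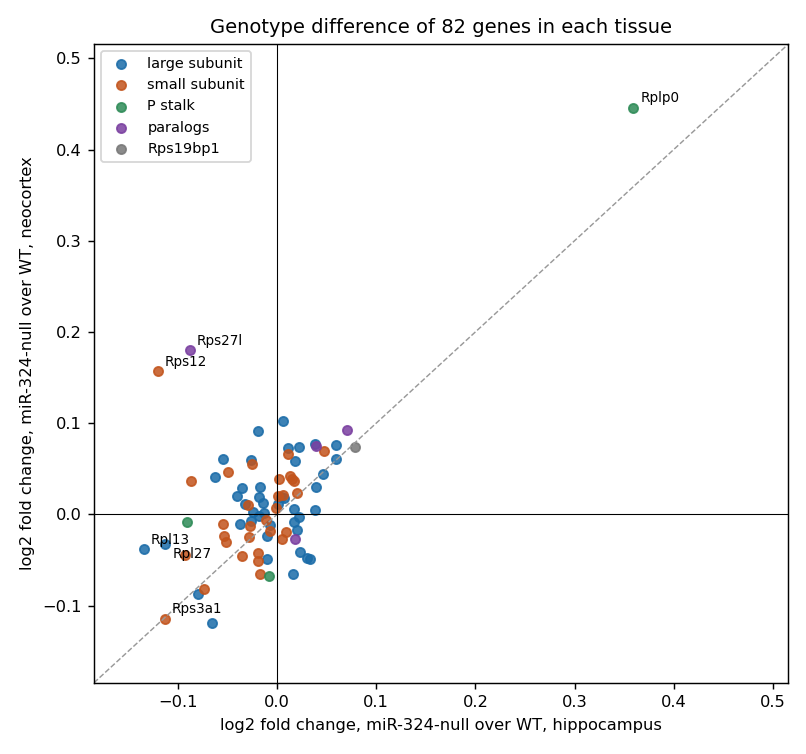
Log2 fold change of miR-324-null over WT for each of 82 members in hippocampus (horizontal) and neocortex (vertical), coloured by class, with the dashed line of equal change. Rplp0 stands alone at 0.36 and 0.45, and the other points gather around 0. The 2 axes share no samples.

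Rplp0 encodes the protein that anchors the P stalk, which recruits the elongation factors, and it is widely used as a reference gene. The gene lies at chr5:115559467-115563727 in GRCm38. It had 127, 132, 110.4, 118 and 127 CPM in WT neocortex and 191, 176, 164, 168 and 133 CPM in miR-324-null neocortex. The groups did not overlap, with miR-324-null replicate 5 just above the highest WT sample. Its log2 fold change was 0.45 ± 0.08 (SE; edgeR, adjusted p = 0.0486), and adjusted p ran from 0.000307 to 0.283 over the other settings that kept all the samples or dropped the choroid plexus library, and from 0.000931 to 0.158 when 1 sample was left out.

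In hippocampus Rplp0 had 157, 163, 159, 146 and 149 CPM in WT and 216, 242, 194, 194 and 147 CPM in miR-324-null. Here miR-324-null replicates 1 to 4 lay above all WT samples and replicate 5 lay among them. Here the log2 fold change was 0.36 ± 0.10 (SE; edgeR, adjusted p = 0.279). Without replicate 5 it was 0.45 ± 0.07 (adjusted p = 0.0312), and in neocortex without replicate 5 it was 0.52 ± 0.06 (adjusted p = 0.000931). The interaction term of Rplp0 was -0.08 ± 0.14 (SE; adjusted p = 0.985).

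Within each tissue, the Rplp0 copies Gm8730 and Gm9625 were low in miR-324-null replicates 1 to 4, where Rplp0 was highest. Gm8730 is a processed pseudogene on chromosome 8 that aligned to Rplp0 over 954 bases with 12 differences. A window from each is printed with the bases that differ in capitals, as read from GRCm38, to show how close copy and parent are.
Rplp0 (chr5:115561144-115561173, plus strand): actgtgccagctcagaacactggtctAggA
Gm8730 (chr8:102865406-102865435, minus strand): actgtgccagctcagaacactggtctGggG
Gm8730 had 34.2, 32.1, 35.1, 32.03 and 30.4 CPM in WT hippocampus and 0.156, 0.153, 0.677, 0.149 and 31.1 CPM in miR-324-null hippocampus. It had 26.2, 27.5, 22.4, 28.7 and 28.1 CPM in WT neocortex and 0.440, 0.253, 0.475, 0.495 and 28.0 CPM in miR-324-null neocortex. It was near 0 in miR-324-null replicates 1 to 4 of both tissues and at the WT level in replicate 5 of both. Gm9625, with 24 differences over 954 bases, followed the same split, at 6.14 to 6.65 CPM in WT hippocampus, 0.447 to 1.07 CPM in miR-324-null replicates 1 to 4 and 8.63 CPM in replicate 5. In neocortex it was at 6.46 to 7.82 CPM, 0.357 to 1.10 CPM and 8.69 CPM. Neither copy was picked by the rule for named genes, and both were chosen after their values were seen.

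Summing Rplp0 with its copies brought the genotypes closer. The sums were 198, 202, 201, 185 and 185 CPM in WT hippocampus and 217, 243, 195, 195 and 187 CPM in miR-324-null hippocampus. In neocortex they were 159.9, 168, 139.8, 153 and 163 CPM in WT and 192, 177, 165, 169 and 170.1 CPM in miR-324-null. In CPM the groups overlapped in both tissues. In TPM the hippocampus groups of these sums overlapped, but every miR-324-null neocortex sample lay above every WT neocortex sample. The neocortex means were 304 ± 17.4 TPM (SD, n = 5) in WT and 356 ± 13.1 TPM in miR-324-null. With the summed counts fitted, the log2 fold change was 0.10 ± 0.07 (SE) in hippocampus and 0.16 ± 0.06 in neocortex. Neither was called (edgeR, adjusted p = 0.654 and 0.283).

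Rps3a1, a small subunit protein, stood apart in the same 2 libraries. It had 351, 343, 334, 308 and 321 CPM in WT hippocampus and 324.5, 336, 322, 319 and 229.9 CPM in miR-324-null hippocampus. In neocortex it had 310.3, 292, 281, 285 and 305 CPM in WT and 315, 284, 266, 271 and 218 CPM in miR-324-null. In both tissues miR-324-null replicate 5 was the lowest sample of that tissue. Its copies on other chromosomes are near-identical, Rps3a2 with 4 differences over 792 bases and Rps3a3 with 9 over 795. Both were named after their values were seen, and a window of the first pair shows the bases that differ in capitals.
Rps3a1 (chr3:86138488-86138517, minus strand): aaaagtAaaaatgctgaagaaacccaagtT
Rps3a2 (chr14:88123141-88123170, minus strand): aaaagtTaaaatgctgaagaaacccaagtC
Rps3a2 had 43.9 CPM in miR-324-null hippocampus replicate 5 and 39.6 CPM in neocortex replicate 5, against at most 0.809 CPM in each of the other 18 samples. Rps3a3 had 36.5 and 34.7 CPM there, against at most 0.379 CPM elsewhere. With all copies added, Rps3a1 was at 311 CPM in hippocampus replicate 5, where the other miR-324-null samples had 319.6 to 336 CPM, and at 293 CPM in neocortex replicate 5, where the others had 267 to 315 CPM. The log2 fold change of Rps3a1 between genotypes was -0.11 ± 0.09 (SE) in hippocampus, and it was not called (edgeR, adjusted p = 0.685). With 1 sample left out it ran from -0.15 to -0.03. The labels do not say whether the 2 libraries numbered 5 came from the same mouse, and what set them apart was not tested. Whether their genotype or background matched that of the other miR-324-null samples was not checked, which touches each value that compares miR-324-null with WT. Without replicate 5, edgeR called 31 genes in hippocampus (17 with it) and 566 in neocortex (47 with it), of which 1 in each was a member, Rplp0.

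**Figure D5:**
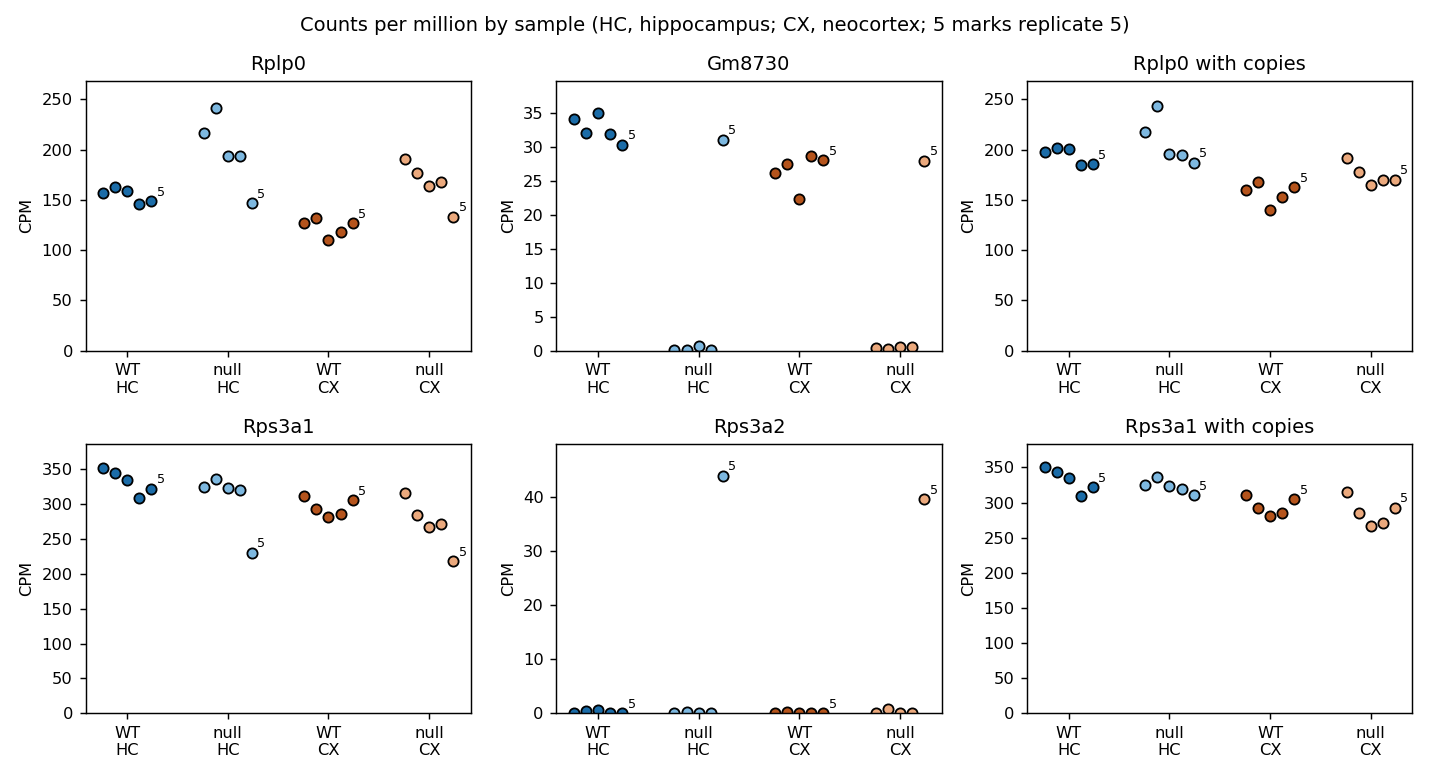
CPM by sample of Rplp0, its copy Gm8730, Rplp0 summed with all its copies, Rps3a1, its copy Rps3a2 and Rps3a1 summed with all its copies, in the 4 groups (5 points each, replicate 5 marked). Gm8730 is near 0 in miR-324-null replicates 1 to 4 and at 31.1 and 28.0 CPM in replicate 5, while Rps3a2 is at 43.9 and 39.6 CPM in replicate 5 and near 0 elsewhere.

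The members with the next smallest p values between genotypes stayed well short of the threshold. In hippocampus these were Rps14, Rps3a1, Rpl13 and Rpl27, with log2 fold changes from -0.13 to -0.09 (edgeR, adjusted p from 0.659 to 0.706). In neocortex they were Rpl35, Rps12, Rpl28 and Rps27l, with log2 fold changes of 0.08, 0.16, -0.09 and 0.18 (adjusted p from 0.525 to 0.585). With copies added, that of Rps12 went to -0.01 and that of Rpl27 to 0.04.

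Mir324 lies on chromosome 11, and so do 7 members, Rpl19, Rpl23, Rpl23a, Rpl26, Rpl27, Rpl38 and Rps27a, the last of which encodes a ubiquitin fused to a small subunit protein. Between genotypes their log2 fold changes lay from -0.11 to 0.02 in hippocampus and from -0.03 to 0.09 in neocortex. EdgeR called 0 of 7 in either tissue. Over all genes it called 0.115% in hippocampus and 0.315% in neocortex, so this count does not set the 7 apart from other genes. None had an unadjusted p of at most 0.05. These 7 lay inside the range of the other members.

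Around the members, the genotype comparisons called neither Fau nor Rack1, 0 of 8 elongation factors, 0 of 17 other tract mRNAs, 0 of 28 assembly factors and 0 of 18 pathway genes in each tissue (edgeR). With 0.115% of all genes called in hippocampus and 0.315% in neocortex, these counts do not set the lists apart from other genes. The striatal markers were higher in miR-324-null neocortex than in WT neocortex by a median log2 fold change of 1.02, with 0 of 8 called. The choroid plexus markers were also higher there, with a median of 1.55 and 0 of 5 tested called. Without the choroid plexus library the neocortex comparison called 0 members, with Rplp0 at 0.42 ± 0.09 (SE; edgeR, adjusted p = 0.114). The part of these tissues in the members' values was not tested.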

How the data were processed

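Poly(A)-selected stranded libraries from 20 samples were sequenced by the authors, who quantified transcripts with kallisto against mouse GRCm38 (Ensembl release 92) and deposited per-transcript estimated counts and TPM. The labels name GRCh38 as build, while the transcripts carry mouse identifiers. kallisto and DESeq2 stand in the submitters' processing notes with no versions.

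Deposited estimated counts and TPM were summed per gene after matching to GENCODE M21: 113580 of 115270 transcripts matched, and unmatched ones held at most 0.556% of the counts. Counts were rounded. Comparisons used edgeR 4.0.16 (limma 3.58.1, R 4.3.3): TMM factors, the filterByExpr filter on low counts, the quasi-likelihood test with group as the only term, Benjamini-Hochberg adjustment over all genes tested and a threshold of 0.05. DESeq2 1.42.0 was an alternative. CPM use the TMM factors. BLAST 2.17.0 found the copies. Estimated counts of near-identical transcripts are a division of shared reads by kallisto's model, so a value of a member can hold reads of a copy and the reverse.

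Named members were every member called between genotypes or in the interaction, the 8 largest called folds each way in each tissue comparison, the 5 highest and 5 lowest by TPM, paralog pairs, chromosome 11 members and the 5 smallest p values of each genotype comparison. Members and lists were chosen with earlier results of these data known. On simulated counts in which 200 genes differed by a log2 fold change of 1, edgeR recovered 97% in the hippocampus genotype comparison (14681 genes) and 99.5% in the neocortex one (14800 genes). Unchanged genes made up 5.83% of edgeR's calls in the hippocampus genotype comparison and 3.40% in the neocortex one. For DESeq2 these shares were 14.8% and 9.22%. In the tissue comparisons they were 1.52% in WT and 4% in miR-324-null for edgeR, and 9.72% and 10.1% for DESeq2. Smaller changes, such as those of most members, were not simulated. Alternatives were other scaling, filters, tools, length offsets, transcript subsets, a replicate block and leaving out samples. Fold changes are relative to the TMM-scaled total. One gene of the lists is not reported here.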

Additional observations from a re-analysis of the deposited data

Results flagged for a closer look

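In each group of 5 samples the highest or lowest value was checked with Dixon's ratio for the printed genes and the summed share, in 88 groups in all, and chance alone flags about 1 in 20 groups. The copies Gm8730, Gm9625, Rps3a2 and Rps3a3 were named because of their values in miR-324-null replicate 5, so how often that replicate stands out among them says nothing beyond that choice. In hippocampus replicate 5 was the lowest for Rps3a1 (229.9 CPM) and the highest for Rps3a2 (43.9 CPM), Rps3a3 (36.5 CPM), Gm8730 (31.1 CPM) and Gm9625 (8.63 CPM). In neocortex it was the highest for Rps3a2 (39.6 CPM), Rps3a3 (34.7 CPM), Gm8730 (28.0 CPM) and Gm9625 (8.69 CPM).

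The other values far from their groups were Rpl22 in miR-324-null hippocampus replicate 2 (116 CPM, high), Rps2 in miR-324-null neocortex replicate 1 (277 CPM, high) and Rps3a3 in WT hippocampus replicate 5 (0.379 CPM, high, in a group otherwise near 0). The summed TPM of the members was low in WT hippocampus replicate 4 (4.82%) and high in WT neocortex replicate 1 (4.76%).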

How the results depend on the processing

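Over the planned settings that kept all samples the members called ran from 46 to 61 in WT (58 reported) and from 18 to 39 in miR-324-null (27 reported), all higher in hippocampus. With 1 sample left out they ran from 48 to 66 in WT and from 13 to 30 in miR-324-null. Without the choroid plexus libraries, an alternative chosen after seeing the data, as was the sum with copies, 13 were called in miR-324-null. Medians kept their sign in both tissue comparisons. The single neocortex genotype call, Rplp0, was lost (0 members) under DESeq2's size factors, the 10-count filter, the length offset in edgeR, the fit of all 20 samples, protein-coding transcripts only, the replicate block, the sum with copies and without the choroid plexus library, and was kept (1) by DESeq2 and without a filter. The cause was not tested. Over all genes the genotype comparisons called 17 in hippocampus and 139 under DESeq2, and 47 in neocortex, 240 under DESeq2 and 566 without miR-324-null neocortex replicate 5. With 1 sample left out the count of members called was 0 to 1 in each tissue and 0 to 0 for the interaction. The hippocampus call appeared only without miR-324-null replicate 5. Over the alternatives and the fits with 1 sample left out together, 17 lost the neocortex call of Rplp0 and 4 kept it, with the block among the 17.

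With copies summed the log2 fold change between genotypes turned to 0.0438 for Rpl27 in hippocampus and to -0.00836 for Rps12 in neocortex, and with a length offset Rps27l turned to -0.00723 in edgeR and -0.00595 in DESeq2 in neocortex (0.18 as reported), and none of the 3 was called under those settings. Rps27l lost its WT tissue call under 3 settings, Rps21 its miR-324-null call under 3 and Rps13 under 4.

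Summed TPM per group, in the order WT and miR-324-null hippocampus, WT and miR-324-null neocortex, was 6.59, 6.48, 5.82 and 5.93% without the mitochondrial genome in the total, 3.82, 3.78, 3.37 and 3.49% for protein-coding transcripts, 1.43, 1.44, 1.25 and 1.28% as estimated counts, and 5.62, 5.61, 5.06 and 5.22% with copies. Leaving out 1 sample gave 5.00 to 5.07, 4.88 to 5.05, 4.38 to 4.49 and 4.58 to 4.66%.

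The labels do not tie a number to a mouse, so the number was not taken as a pairing in the main fits. The deviations of same-numbered samples had correlations from -0.32 to 0.35 over 10656 genes. That range includes pairs of different genotype, which cannot share a mouse. Between the tissues of 1 genotype, where a number could mark a mouse, 4 of 5 pairs were over 0.1 in miR-324-null and 2 of 5 in WT. With the replicate block 57 members were called in WT and 39 in miR-324-null between tissues, and 0 in the interaction. It also gave 0 in both genotype comparisons, where it joined samples of different mice and so tells nothing about pairing. At most 3 of 5 samples correlated best with their own number. The 4 members near 0 were too low to test, and Rps27l, at no more than 141 counts in a sample, had an SE of 0.13 in the WT tissue comparison against a median of 0.05. What depth limits was not tested further.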
